A study of Homo sapiens with 24 samples.

Results

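The cytoplasmic mRNA decay machinery was followed in HEK293, an established human embryonic kidney line, as 48 genes that encode its enzymes and cofactors. The genes were chosen by symbol from known sub-complexes, and no measured value entered the rule. Earlier results of these data were known when the genes were chosen. They were 11 genes of the CCR4-NOT complex, 4 TOB/BTG adaptors, PAN2, PAN3 and PARN, and 11 genes of decapping and 5'-3' decay. The rest were 4 genes of cap-binding repression, 12 genes of the RNA exosome and 3 genes of the SKI complex. All 48 were present as entries naming 1 gene among the 19692 entries of the deposited count tables. Read counts sufficed to test 40 of them among 10038 entries for all reads. CNOT2, CNOT8, RQCD1, DCP1B, LSM14A, LSM14B, EXOSC3 and EXOSC10 fell under the filter on low counts and were not tested there.

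The HEK293 lines compared were ZC3H7B-OE, which the labels give as overexpressing ZC3H7B, a CCCH zinc finger RNA-binding protein, and the control, labelled as overexpressing Flag/HA alone. Both received 100 µM 4-thiouridine (s4U) together with 1 µg/mL doxycycline for 24 h and then 10 mM uridine, and were collected at 0, 2, 4 and 6 h of this chase with 3 libraries in each of 8 groups. RNA was poly(A)-selected, which leaves out transcripts whose tail has been removed. In SLAM-seq, alkylated s4U is read as C. A read with T>C conversions (a labelled read) is taken to come from RNA made during the pulse. Labelled reads of some genes nevertheless rose early in the chase, as given with the slopes below. Whether a line is 1 clone is not in the labels, and neither is whether its replicates were grown apart; p-values therefore cover the spread among these libraries alone, which may be technical.

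Most mRNAs are destroyed in the cytoplasm after their poly(A) tail is shortened, first by PAN2-PAN3 and then by CCR4-NOT. Genes for the nucleases of CCR4-NOT come as pairs of close relatives. The deadenylated mRNA is then either decapped by DCP2 and degraded from its 5' end by XRN1, or degraded from its 3' end by the exosome with the help of the SKI helicase complex. CCR4-NOT also reads slow translation through its CNOT3 subunit, so codon choice and mRNA decay are linked in many organisms.

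Depth ran from 1502068 to 3676254 reads per library, of which 830574 to 1579744 were labelled. One library, control 0 h replicate 3, lay away from the rest, with 11032 entries detected against 12005 to 13201 in the others, a TMM scaling factor of 0.726 against 0.926 to 1.08, and correlations with its own group that averaged 0.914 against 0.941 to 0.981. Among the decay genes it held 1051 CPM (reads per 1e6 TMM-scaled reads) of LSM1 against 346 and 377 CPM in the other control libraries at 0 h, and 24.8 CPM of CNOT3 against 81.3 and 73.7 CPM. ZC3H7B itself ran from 254 to 463 CPM in ZC3H7B-OE and from 192 to 376 CPM in control, 1.22-fold higher (log2 0.28, SE 0.08, adjusted p = 0.00347 in edgeR, over 12 ZC3H7B-OE and 12 control libraries). By time the log2 fold change was 0.56, -0.09, 0.35 and 0.32 at 0, 2, 4 and 6 h, and at 2 h ZC3H7B-OE held 290, 357 and 324 CPM against 374, 376 and 283 CPM in control. The files do not show whether transcripts of the transgene were counted in full, so this fold may not measure the overexpression. Of 7 HEK293 marker genes, 6 were in the tables, and their summed level was low, 16.5 to 39.6 CPM in ZC3H7B-OE and 14.7 to 47.9 CPM in control. The leukocyte markers PTPRC and CD3E were at 0 in every library, and the 5 leukocyte markers summed to 59.9 to 131 CPM in ZC3H7B-OE and 44.7 to 273 CPM in control. Fibroblast markers summed to at most 6.35 CPM in ZC3H7B-OE and 6.12 CPM in control with DCN at 0, and 4 epithelial markers summed to 119 to 294 CPM in ZC3H7B-OE and 113 to 732 CPM in control. The upper limits of 273 and 732 CPM came from control 0 h replicate 3, with 271 CPM of CD68 and 650 CPM of KRT10, against at most 106 and 221 CPM in the other control libraries. Their part in the results was not tested.

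As the mean of the 4 times, 6 of the 40 decay genes were higher in ZC3H7B-OE than in control and 12 were lower (edgeR quasi-likelihood test, adjusted p under 0.05, adjusted over all entries). Among all 10038 entries tested, 20.4% were called higher and 25.4% lower, so both counts lay near the background. Their median log2 fold change was -0.12, against 0.01 over all entries. The genes called higher were CNOT3, CNOT4, TOB2, EDC3, EXOSC5 and SKIV2L. Those called lower were CNOT6, CNOT6L, CNOT7, CNOT10, BTG1, BTG2, PAN3, PARN, DCP2, DDX6, EXOSC8 and DIS3, among them the decapping enzyme DCP2 and the nucleases CNOT6, CNOT6L, CNOT7, PARN and DIS3. In bulk RNA, fewer cells expressing a gene and less of its RNA per cell cannot be told apart.

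**Figure D1:**
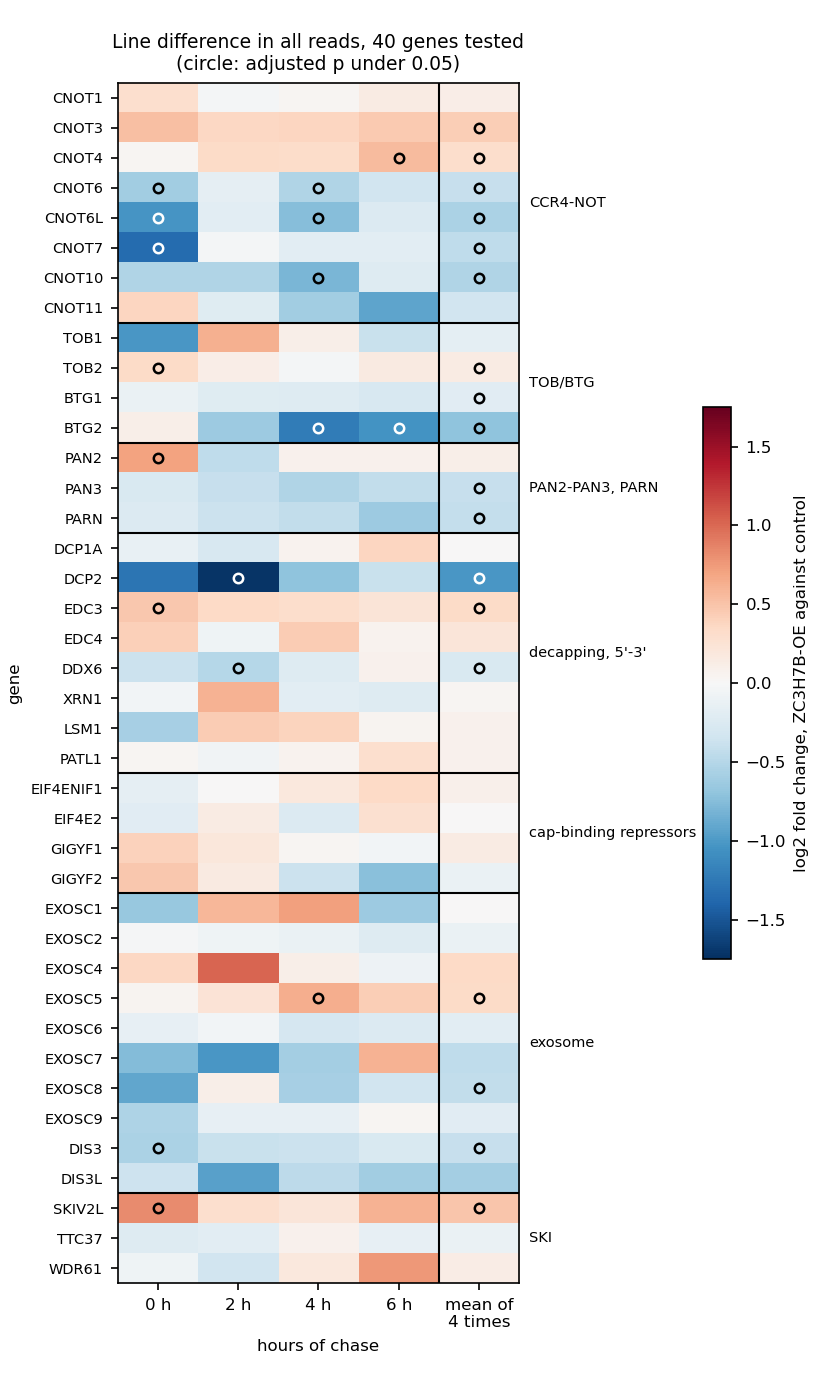
Log2 fold change of all reads, ZC3H7B-OE against control, for the 40 decay genes tested (down the page, by sub-complex) at each chase time in hours and as the mean of the 4 times; circles mark adjusted p under 0.05 (edgeR). DCP2 had the most negative mean (-1.02) and SKIV2L the most positive (0.49), and CNOT7 stood at -1.34 at 0 h but near 0 later.

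Without control 0 h replicate 3, a fit that tested 44 of the genes called 7 higher and 12 lower as the mean of the 4 times, beside 21.7% and 24.8% of all entries. In that fit LSM1 was called higher (log2 fold change 0.25, adjusted p = 0.000438 by edgeR) and EXOSC6 lower (-0.19, adjusted p = 0.0274), while EXOSC8 was not called (-0.23, adjusted p = 0.0782). With all 24 libraries LSM1 stood at 0.08 (adjusted p = 0.677), EXOSC6 at -0.18 (adjusted p = 0.0531) and EXOSC8 at -0.43 (adjusted p = 0.049).

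To show what the called genes look like as codons, 90 bases from the middle of the coding sequence are printed for 3 genes called higher and 3 called lower, those with the largest mean differences. Capitals mark G or C at the third position of a codon, the feature that is set against the line difference further below. Sequences and coordinates are from GENCODE version 29 on GRCh38, reading 5' to 3' on the coding strand, and a range that spans introns is longer than its coding bases. The stretch of SKIV2L holds codons 609 to 638 (chr6:31964090-31964285, plus strand), that of CNOT3 codons 362 to 391 (chr19:54148337-54148426, plus strand) and that of EXOSC5 codons 103 to 132 (chr19:41389894-41391918, minus strand). The stretch of DCP2 holds codons 196 to 225 (chr5:113001357-113001446, plus strand), that of BTG2 codons 65 to 94 (chr1:203307154-203307243, plus strand) and that of CNOT6L codons 263 to 292 (chr4:77731535-77742226, minus strand).
SKIV2L: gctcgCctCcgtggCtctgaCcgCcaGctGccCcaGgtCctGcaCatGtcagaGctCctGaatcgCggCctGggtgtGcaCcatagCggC
CNOT3: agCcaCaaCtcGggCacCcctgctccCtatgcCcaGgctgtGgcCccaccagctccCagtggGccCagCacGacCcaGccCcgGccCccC
EXOSC5: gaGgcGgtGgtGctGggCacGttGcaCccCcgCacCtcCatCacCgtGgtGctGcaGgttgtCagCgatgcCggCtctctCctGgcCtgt
DCP2: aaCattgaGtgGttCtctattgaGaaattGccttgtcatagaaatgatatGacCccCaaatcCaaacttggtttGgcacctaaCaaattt
BTG2: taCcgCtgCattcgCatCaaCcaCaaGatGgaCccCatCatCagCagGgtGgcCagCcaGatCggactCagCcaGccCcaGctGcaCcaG
CNOT6L: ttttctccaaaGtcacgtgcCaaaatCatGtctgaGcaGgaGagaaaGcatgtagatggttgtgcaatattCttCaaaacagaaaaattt
Capitals fell on 76.7% of these codons in SKIV2L, 73.3% in CNOT3 and 86.7% in EXOSC5, the genes called higher. In the genes called lower they fell on 40% in DCP2, 93.3% in BTG2 and 33.3% in CNOT6L. Over the whole coding sequence the values were 67.5% in SKIV2L, 74.0% in CNOT3, 74.0% in EXOSC5, 37.1% in DCP2, 90.5% in BTG2 and 43.6% in CNOT6L.

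CCR4-NOT is built on the scaffold CNOT1 and carries 2 kinds of deadenylase, the CCR4-type enzymes CNOT6 and CNOT6L and the CAF1-type enzymes CNOT7 and CNOT8. Of its 11 genes 8 were tested, and 2 were called higher and 4 lower in ZC3H7B-OE, beside 20.4% and 25.4% of all entries. Among its nucleases CNOT6, CNOT6L and CNOT7 were called lower, and CNOT8 was not tested. CNOT6 held 65.7, 49.7, 58.3 CPM at 0 h, then 123, 144, 160 at 2 h, then 277, 245, 252 at 4 h and finally 373, 344, 356 at 6 h in ZC3H7B-OE, in replicate order. In control it held 91.1, 90.5, 81.6 CPM at 0 h, then 153, 148, 177 at 2 h, then 396, 364, 362 at 4 h and finally 455, 427, 464 at 6 h. The ranges of the lines did not overlap at 0, 4 and 6 h, and the mean difference was -0.41 on the log2 scale (SE 0.07, adjusted p = 4.71e-06 by edgeR), or 1.33-fold lower.

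CNOT6L, the paralogue of CNOT6, had 9.46, 10.1, 8.67 CPM at 0 h, then 51.1, 56.7, 64.6 at 2 h, then 123, 82.8, 81.3 at 4 h and finally 119, 159, 129 at 6 h in ZC3H7B-OE. Control libraries had 17.6, 26, 12.8 CPM at 0 h, then 61.7, 65.7, 70 at 2 h, then 168, 165, 150 at 4 h and finally 152, 167, 161 at 6 h. All ZC3H7B-OE libraries lay below all control libraries at 0 and 4 h, and the ranges overlapped at 2 and 6 h. The mean difference was -0.55 on the log2 scale (SE 0.10, adjusted p = 3.4e-05 by edgeR), or 1.47-fold lower.

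CNOT7, the CAF1 nuclease that binds the TOB and BTG adaptors, showed the line difference at the end of the pulse. Its level was 75.1, 81.1, 51.4 CPM at 0 h, then 165, 148, 154 at 2 h, then 264, 235, 239 at 4 h and finally 338, 375, 362 at 6 h in ZC3H7B-OE. It was 152, 140, 239 CPM at 0 h, then 162, 151, 165 at 2 h, then 295, 277, 268 at 4 h and finally 404, 379, 441 at 6 h in control. Every ZC3H7B-OE library was lower at 0 h, the ranges overlapped at 2 h, and they were apart again by a small margin at 4 and 6 h. At 0 h the log2 fold change was -1.34 (SE 0.17, edgeR adjusted p = 2.66e-07), and at 2, 4 and 6 h it was -0.04, -0.19 and -0.19. With all libraries CNOT7 was the only one of the 40 genes whose line difference changed along the chase (edgeR F test of 3 interaction contrasts, adjusted p = 0.00453), a rule that called 1.73% of all entries. The call was kept without control 0 h replicate 3 (adjusted p = 0.000779), a fit that also called DCP1A (adjusted p = 0.0269), and ended without the 0 h libraries (adjusted p = 0.839). As a mean of the 4 times the difference was -0.44 on the log2 scale (SE 0.08, adjusted p = 2.7e-05 by edgeR), or 1.35-fold lower, and without 0 h it was -0.11 (adjusted p = 0.128).

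CNOT8, the second CAF1-type enzyme, was barely detected. It had 1.77, 6.28, 0 CPM at 0 h, then 1.72, 1.61, 2.54 at 2 h, then 0.99, 0.37, 0.729 at 4 h and finally 0.594, 2.26, 1.1 at 6 h in ZC3H7B-OE, from 46 reads in all. Control libraries had 0, 0, 1.83 CPM at 0 h, then 1.53, 0.539, 2.15 at 2 h, then 0.628, 1.16, 0.38 at 4 h and finally 1.01, 0.349, 0 at 6 h, from 20 reads. The ranges overlapped at each time, and no line difference in CNOT8 was detectable at this depth.

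The remaining CCR4-NOT subunits did not move one way. CNOT3, part of the NOT module and able to contact the ribosome, had 85.2, 85, 98.2 CPM at 0 h, then 78.1, 73.3, 61 at 2 h, then 85.8, 76.9, 85.6 at 4 h and finally 97.2, 104, 76 at 6 h in ZC3H7B-OE. In control CNOT3 had 81.3, 73.7, 24.8 CPM at 0 h, then 53, 67.3, 44.7 at 2 h, then 55.9, 67.3, 68.8 at 4 h and finally 83.6, 62.8, 56.2 at 6 h. The ranges were apart at 0 and 4 h with ZC3H7B-OE higher, overlapped at 2 and 6 h, and the mean difference was 0.43 on the log2 scale (SE 0.12, adjusted p = 0.00356 by edgeR), or 1.35-fold higher; without control 0 h replicate 3 it was 0.35 (adjusted p = 0.00046). CNOT10, of the module that holds CNOT11, had 14.8, 14.5, 20.2 CPM at 0 h, then 18.4, 17.7, 15.8 at 2 h, then 13.5, 13.7, 13.1 at 4 h and finally 23.5, 18.6, 13.5 at 6 h in ZC3H7B-OE. Its control values were 18.6, 17.3, 38.5 CPM at 0 h, then 25.5, 26.9, 22.1 at 2 h, then 24.5, 20.9, 25.1 at 4 h and finally 16.9, 26.5, 21.7 at 6 h. ZC3H7B-OE was lower in every library at 2 and 4 h, and the mean difference was -0.52 on the log2 scale (SE 0.14, adjusted p = 0.00289 by edgeR), or 1.43-fold lower. The CNOT10 call ended without the 4 h libraries (-0.42, adjusted p = 0.0577). CNOT4, a ubiquitin ligase associated with the complex, was higher by a mean log2 of 0.31 (SE 0.11, adjusted p = 0.0173 by edgeR). That call ended without the 6 h libraries (0.23, adjusted p = 0.204) and without the 4 h libraries (0.31, adjusted p = 0.0786). It also ended without ZC3H7B-OE 0 h replicate 1 (0.27, adjusted p = 0.053). The scaffold CNOT1 had a mean of 0.11 (adjusted p = 0.236) and CNOT11 one of -0.34 (adjusted p = 0.143).

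**Figure D2:**
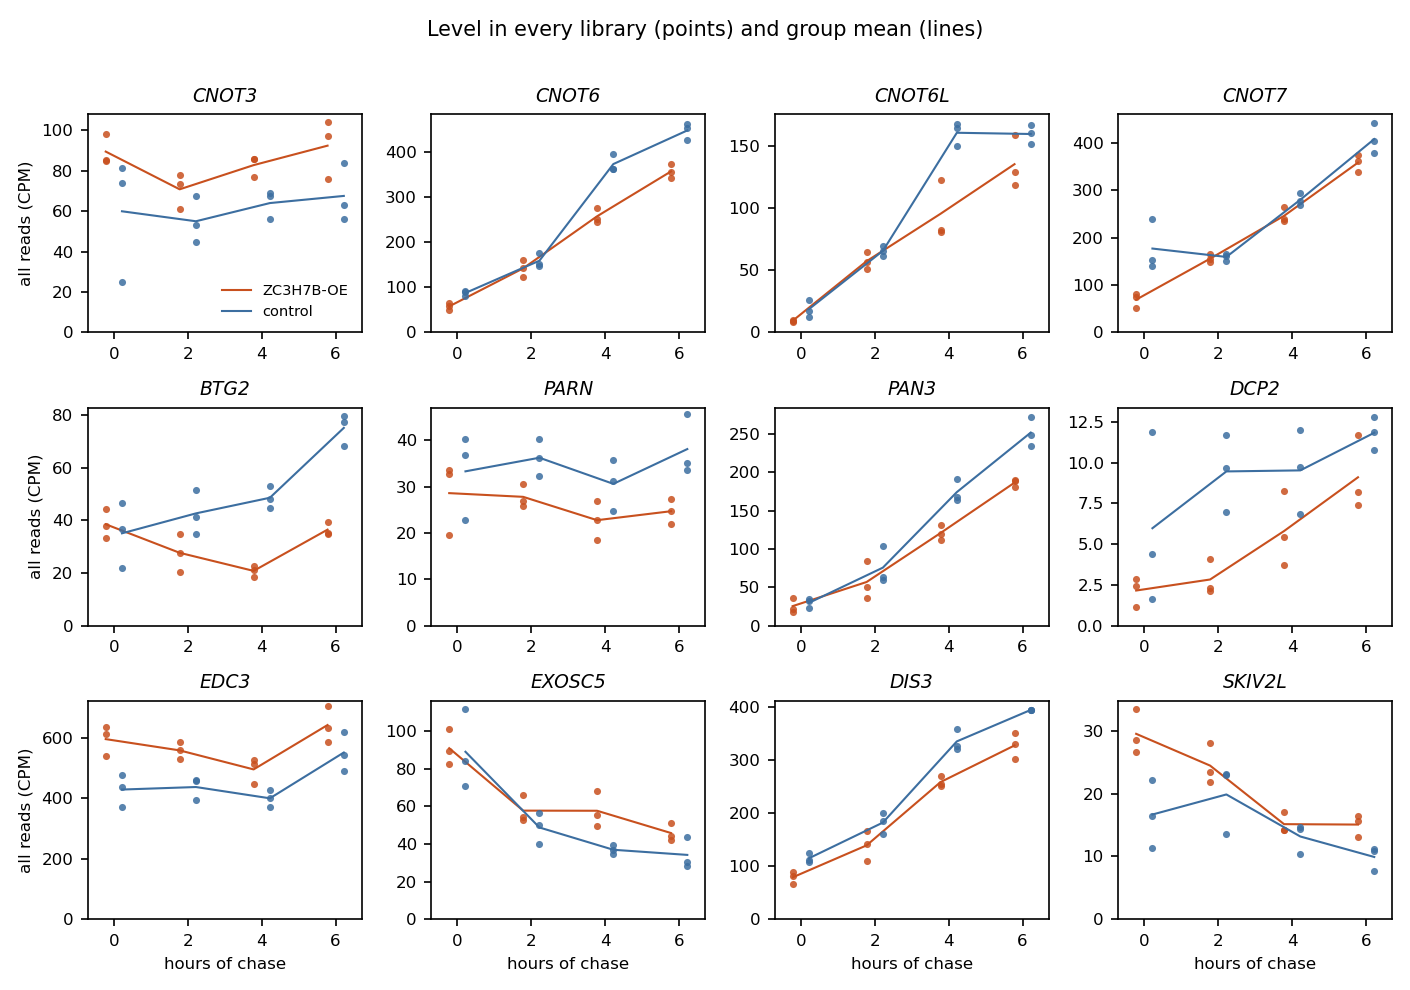
Level of all reads (CPM, vertical axes starting at 0) in each library against hours of chase for 12 of the genes called in the mean of the 4 times; ZC3H7B-OE points stand left of control points, and lines join group means. The BTG2 lines are close at 0 h and far apart at 6 h, the CNOT7 lines are apart at 0 h, and EDC3 is higher in ZC3H7B-OE at every time.

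TOB1, TOB2, BTG1 and BTG2 are antiproliferative proteins that bind CAF1 and tie it to poly(A)-binding protein. BTG2 had the largest difference of the 4. Its level was 44.4, 37.7, 33.5 CPM at 0 h, then 35, 27.8, 20.3 at 2 h, then 22.8, 21.1, 18.6 at 4 h and finally 35.4, 34.7, 39.4 at 6 h in ZC3H7B-OE. It was 36.7, 46.6, 22 CPM at 0 h, then 41.3, 51.7, 35 at 2 h, then 44.6, 48.3, 52.9 at 4 h and finally 79.8, 77.2, 68.4 at 6 h in control. The ranges overlapped at 0 h, met at 2 h and were fully apart at 4 and 6 h, where every ZC3H7B-OE library was lower. The mean difference was -0.70 on the log2 scale (SE 0.11, adjusted p = 5.05e-06 by edgeR), or 1.62-fold lower. At 4 h the log2 fold change was -1.22 (SE 0.22, adjusted p = 0.000241) and at 6 h it was -1.04 (SE 0.21, adjusted p = 0.000751), whereas 0 and 2 h gave 0.10 and -0.63 (adjusted p = 0.782 and 0.0903). The change along the chase did not pass its own test (adjusted p = 0.0609 by edgeR). BTG2 is shown by library although its sign at 0 h differed from that at later times, a choice made after its values were seen. TOB2 (mean 0.15, adjusted p = 0.044) and BTG1 (mean -0.20, adjusted p = 0.0398) were called in opposite directions, and each call was lost under more than 16 of 32 alternatives. TOB1 stood at -0.17 (adjusted p = 0.487).

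PAN2 is the nuclease and PAN3 the poly(A)-binding adaptor of the complex that starts tail shortening, while PARN is a cap-stimulated poly(A) nuclease. PAN2 had 56.2, 47.3, 57.2 CPM at 0 h, then 54.5, 30, 47.3 at 2 h, then 34.7, 48.5, 55 at 4 h and finally 46.7, 42.9, 47.5 at 6 h in ZC3H7B-OE. In control PAN2 had 33.8, 44.4, 17.4 CPM at 0 h, then 46.9, 70, 61.3 at 2 h, then 40.8, 42.5, 47.5 at 4 h and finally 47.7, 37, 45.6 at 6 h. At 0 h every ZC3H7B-OE library was higher, at a log2 fold change of 0.70 (adjusted p = 0.0318). That call ended without control 0 h replicate 3 (0.45, adjusted p = 0.17), and the mean of the 4 times was 0.10 (adjusted p = 0.509). PAN3 had 36.7, 21.7, 18.5 CPM at 0 h, then 50.5, 36.4, 84.4 at 2 h, then 131, 112, 120 at 4 h and finally 189, 190, 181 at 6 h in ZC3H7B-OE. Its control values were 34.8, 32, 22.9 CPM at 0 h, then 63.7, 59.8, 104 at 2 h, then 191, 168, 164 at 4 h and finally 249, 272, 235 at 6 h. The ranges were apart at 4 and 6 h with ZC3H7B-OE lower, and the mean difference was -0.40 on the log2 scale (SE 0.12, adjusted p = 0.00565 by edgeR), or 1.32-fold lower. PARN had 19.5, 32.8, 33.5 CPM at 0 h, then 27, 30.5, 25.9 at 2 h, then 22.8, 18.5, 27 at 4 h and finally 24.7, 22, 27.4 at 6 h in ZC3H7B-OE. Control held 40.2, 36.8, 22.9 CPM at 0 h, then 40.3, 36.1, 32.3 at 2 h, then 35.8, 31.3, 24.7 at 4 h and finally 45.7, 33.5, 35.1 at 6 h of PARN. ZC3H7B-OE was lower in every library at 2 and 6 h, and the mean difference was -0.42 on the log2 scale (SE 0.12, adjusted p = 0.00452 by edgeR), or 1.34-fold lower. Both calls ended without the 6 h libraries (PAN3 adjusted p = 0.051, PARN adjusted p = 0.0653), and that of PAN3 also without 4 h (adjusted p = 0.0689).

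In decapping, DCP2 is the hydrolase that removes the cap, DCP1A activates it, EDC3 and EDC4 are enhancers, DDX6 is a helicase that links CCR4-NOT to decapping, and XRN1 is the 5'-3' exonuclease. DCP2 had the largest mean difference of all 40 genes, at the lowest counts among those called, 164 reads in ZC3H7B-OE and 270 in control. Its levels were 1.18, 2.41, 2.89 CPM at 0 h, then 2.3, 2.14, 4.07 at 2 h, then 8.25, 3.7, 5.47 at 4 h and finally 7.43, 8.18, 11.7 at 6 h in ZC3H7B-OE. They were 4.41, 1.63, 11.9 CPM at 0 h, then 11.7, 7, 9.69 at 2 h, then 9.74, 12, 6.84 at 4 h and finally 10.8, 11.9, 12.8 at 6 h in control. The ranges were apart only at 2 h, where ZC3H7B-OE held 4 to 8 reads per library. The mean difference was -1.02 on the log2 scale (SE 0.25, adjusted p = 0.00103 by edgeR), or 2.03-fold lower, and without control 0 h replicate 3 it was -0.83 (adjusted p = 0.00496).

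EDC3 was called higher in ZC3H7B-OE. It had 636, 539, 613 CPM at 0 h, then 561, 586, 529 at 2 h, then 512, 449, 526 at 4 h and finally 588, 634, 706 at 6 h in ZC3H7B-OE. In control it had 477, 439, 371 CPM at 0 h, then 461, 458, 393 at 2 h, then 428, 371, 401 at 4 h and finally 619, 491, 545 at 6 h. All ZC3H7B-OE libraries exceeded all control libraries at 0, 2 and 4 h, and the ranges overlapped at 6 h. The mean difference was 0.34 on the log2 scale (SE 0.06, adjusted p = 3.95e-05 by edgeR), or 1.26-fold higher. DDX6 was lower by a mean log2 of -0.26 (SE 0.07, adjusted p = 0.00304), from -0.50 at 2 h (adjusted p = 0.0176) to 0.07 at 6 h, and without 2 h the call ended (-0.16, adjusted p = 0.103).

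XRN1 did not differ beyond its spread. It had 12.4, 10.1, 15 CPM at 0 h, then 43.6, 72.3, 85 at 2 h, then 107, 88.4, 119 at 4 h and finally 121, 119, 103 at 6 h in ZC3H7B-OE. Control libraries had 4.9, 15.7, 21.1 CPM at 0 h, then 35.7, 24.2, 72.1 at 2 h, then 128, 124, 104 at 4 h and finally 127, 157, 118 at 6 h. The ranges overlapped at all 4 times, and the mean log2 fold change was 0.04 (SE 0.17, adjusted p = 0.882). DCP1A stood at 0.01 (SE 0.07), EDC4 at 0.21 (SE 0.12), PATL1 at 0.08 (SE 0.08) and LSM1, which defines the cytoplasmic LSM ring, at 0.08 (SE 0.14), and none was called. The cap-binding repressors EIF4ENIF1 (0.09, SE 0.17), EIF4E2 (-0.00, SE 0.10), GIGYF1 (0.15, SE 0.12) and GIGYF2 (-0.12, SE 0.42) were not called either. GIGYF2 rested on 90 reads in ZC3H7B-OE and 120 in control.

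The exosome is a ring of inactive subunits, EXOSC4 to EXOSC9, with a cap of EXOSC1 to EXOSC3, to which the nucleases DIS3, DIS3L and EXOSC10 are attached. DIS3, which is mainly nuclear, was the one nuclease of the exosome that was called. It had 81, 66.2, 89 CPM at 0 h, then 109, 141, 167 at 2 h, then 251, 269, 255 at 4 h and finally 302, 350, 330 at 6 h in ZC3H7B-OE. In control it had 125, 111, 108 CPM at 0 h, then 161, 185, 200 at 2 h, then 359, 326, 320 at 4 h and finally 395, 394, 394 at 6 h. The ranges were apart at 0, 4 and 6 h with ZC3H7B-OE lower, and the mean difference was -0.40 on the log2 scale (SE 0.07, adjusted p = 2.35e-05 by edgeR), or 1.32-fold lower. DIS3L, its cytoplasmic relative, had 0.591, 5.8, 2.89 CPM at 0 h, then 2.87, 2.68, 2.03 at 2 h, then 3.63, 1.85, 2.19 at 4 h and finally 1.19, 3.39, 1.46 at 6 h in ZC3H7B-OE, from 74 reads. Control held 1.96, 3.25, 8.25 CPM at 0 h, then 5.61, 5.39, 3.77 at 2 h, then 4.08, 3.87, 2.66 at 4 h and finally 3.72, 0.698, 4.85 at 6 h of DIS3L, from 107 reads. The ranges of DIS3L were apart only at 2 h, and its mean of -0.59 (SE 0.34, adjusted p = 0.153) was not called. EXOSC10 had 2.37, 0.966, 1.73 CPM at 0 h, then 1.72, 2.68, 6.1 at 2 h, then 1.98, 2.59, 2.19 at 4 h and finally 3.86, 1.69, 1.83 at 6 h in ZC3H7B-OE, from 72 reads. In control EXOSC10 had 5.39, 3.25, 0 CPM at 0 h, then 2.04, 2.15, 1.08 at 2 h, then 2.2, 2.32, 1.52 at 4 h and finally 1.35, 2.79, 2 at 6 h, from 63 reads. EXOSC10 was too low to test, and its ranges overlapped at every time.

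Of the ring and cap subunits, EXOSC5 was higher in ZC3H7B-OE. Its values were 89.3, 101, 82.6 CPM at 0 h, then 54.5, 65.8, 52.9 at 2 h, then 49.5, 68.1, 55.4 at 4 h and finally 44.3, 51.1, 42 at 6 h in ZC3H7B-OE. They were 84.2, 71, 112 CPM at 0 h, then 39.8, 56.5, 50 at 2 h, then 36.8, 34.4, 39.5 at 4 h and finally 43.6, 30.4, 28.5 at 6 h in control. The ranges were apart at 4 h only, and the mean difference was 0.34 on the log2 scale (SE 0.10, adjusted p = 0.00547 by edgeR), or 1.27-fold higher. The EXOSC5 call ended without the 4 h libraries (0.24, adjusted p = 0.117). EXOSC8 was called lower (mean -0.43, adjusted p = 0.049), but control 0 h replicate 3 held 135 CPM of it against 32.8 and 41.7 CPM in the other control libraries at 0 h. EXOSC1, EXOSC2, EXOSC4, EXOSC6, EXOSC7 and EXOSC9 had means between -0.44 and 0.35 and were not called.

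SKIV2L is the helicase of the SKI complex, which feeds mRNA to the exosome, and TTC37 and WDR61 are its scaffold partners. SKIV2L had 26.6, 28.5, 33.5 CPM at 0 h, then 23.5, 21.9, 28 at 2 h, then 14.2, 17, 14.2 at 4 h and finally 13.1, 16.4, 15.7 at 6 h in ZC3H7B-OE. In control it had 11.3, 22.2, 16.5 CPM at 0 h, then 22.9, 23.2, 13.5 at 2 h, then 10.4, 14.7, 14.4 at 4 h and finally 11.2, 10.8, 7.7 at 6 h. ZC3H7B-OE was higher in every library at 0 and 6 h, and the mean difference was 0.49 on the log2 scale (SE 0.14, adjusted p = 0.00493 by edgeR), or 1.4-fold higher. TTC37 stood at -0.12 (SE 0.16) and WDR61 at 0.13 (SE 0.36), neither called.

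Taken time by time, fewer genes were called. At 0 h 8 of the 40 genes were called in either direction, beside 31.2% of all entries, namely CNOT6, CNOT6L, CNOT7 and DIS3 lower and EDC3, PAN2, SKIV2L and TOB2 higher. At 2 h 2 genes were called, DCP2 and DDX6, both lower (9.46% of all entries). At 4 h 5 genes were called, BTG2, CNOT6, CNOT6L and CNOT10 lower and EXOSC5 higher (17.7% of all entries). At 6 h 2 genes were called, BTG2 lower and CNOT4 higher (15.8% of all entries). These counts moved with 1 library. Without control 0 h replicate 3, of 44 genes tested, 6, 6, 10 and 7 were called at 0, 2, 4 and 6 h, beside 20.2%, 15.9%, 27.0% and 25.4% of all entries. At 0 h PAN2, TOB2 and SKIV2L were then not called, and DDX6 was. Fitted to the 6 libraries of a time alone, 1, 4, 12 and 14 genes were called at 0, 2, 4 and 6 h, beside 9.68%, 14.9%, 34.1% and 35.5% of all entries.

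Over the chase itself the log2 changes of the decay genes ran from -2.07 (EXOSC7 in control) to 4.6 (TOB1 in ZC3H7B-OE). Both ends rested on few reads, 4, 1 and 8 of EXOSC7 at 6 h and 2, 6 and 1 of TOB1 at 0 h. The mean difference between lines, an average over 4 times, ran from -1.02 to 0.49. Single times went further, as for DCP2 (-1.71 at 2 h) and SKIV2L (0.83 at 0 h). From all reads at 6 h against 0 h, 19 of 40 genes were higher at 6 h and 10 lower in ZC3H7B-OE, beside 32.8% and 30.6% of all entries. In control, 22 were higher and 10 lower, beside 30.7% and 29.9% of all entries. The median log2 change was 0.26 in ZC3H7B-OE and 0.91 in control, against -0.08 and -0.05 over all entries. Levels are relative to the reads of a library, so a higher level at 6 h is a larger share of the reads. Whether it is also a larger share of the mRNA was not tested.

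The sub-complexes went different ways, with medians of the same sign in both lines except for PAN2, PAN3 and PARN (-0.22 in ZC3H7B-OE, 0.40 in control). The median log2 change was 1.63 in ZC3H7B-OE and 1.27 in control for CCR4-NOT (8 genes tested), 1.19 and 1.51 for the TOB/BTG adaptors (4 genes) and 2.08 and 1.42 for decapping (8 genes). It was -0.67 in ZC3H7B-OE and -0.81 in control for the exosome (10 genes) and -0.97 and -0.75 for the SKI complex (3 genes). Within CCR4-NOT 5 genes were called higher at 6 h in ZC3H7B-OE and 6 in control, with none called lower. Within the exosome 2 genes were called higher in each line, DIS3 and EXOSC9, and 5 lower in ZC3H7B-OE and 6 lower in control. The SKI genes were split: TTC37 was called higher in each line, SKIV2L lower in each line and WDR61 lower in control only. Without control 0 h replicate 3 neither SKIV2L nor WDR61 was called in control, and TTC37 still was. The counts describe the lists, and no test compared a list with other entries.

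**Figure D3:**
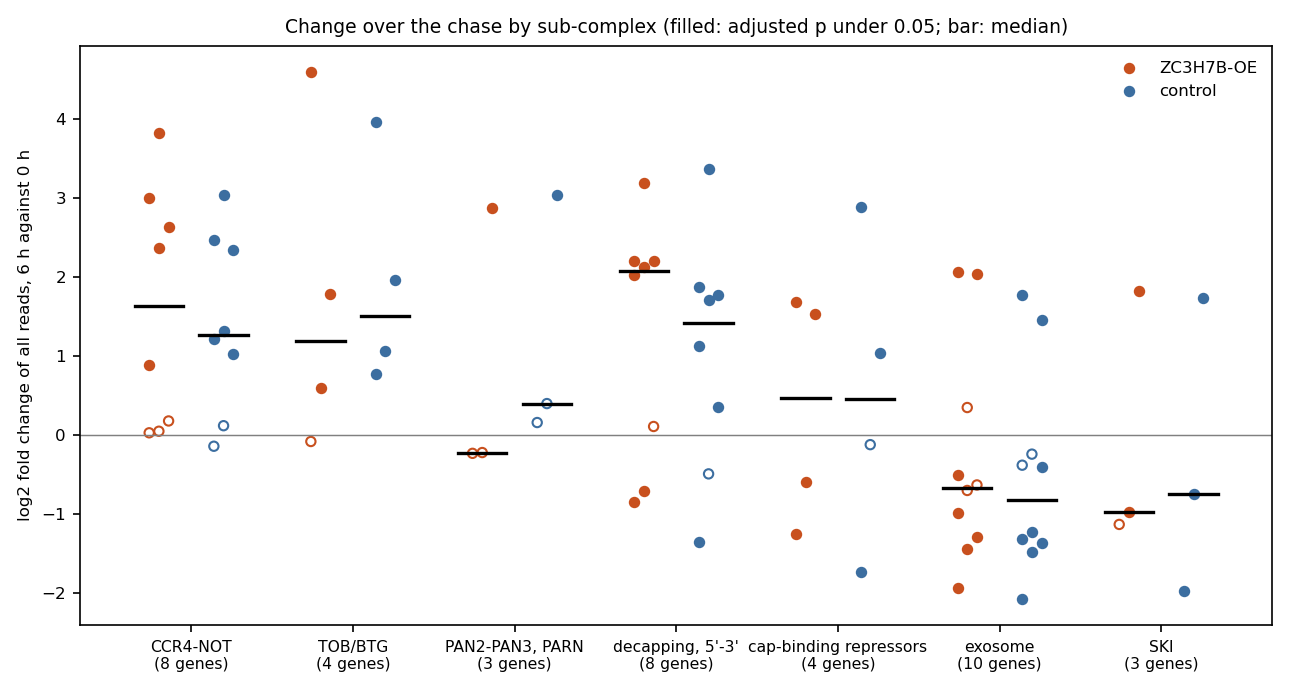
Log2 fold change of all reads at 6 h against 0 h of chase for each tested gene, by sub-complex, in ZC3H7B-OE (left of each pair) and control; filled points have adjusted p under 0.05 (edgeR) and bars are medians. Decapping genes have medians of 2.08 in ZC3H7B-OE and 1.42 in control, and exosome genes medians of -0.67 and -0.81.

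The largest increases in ZC3H7B-OE were those of TOB1 (log2 4.6, SE 0.41), CNOT6L (3.83, SE 0.23), XRN1 (3.19, SE 0.36), CNOT4 (3.00, SE 0.22) and PAN3 (2.87, SE 0.25). In control they were those of TOB1 (3.96, SE 0.37), XRN1 (3.37, SE 0.37), CNOT6L (3.04, SE 0.21), PAN3 (3.04, SE 0.25) and GIGYF2 (2.89, SE 0.80). TOB1 read 40.1, 38.1 and 43.8 CPM at 6 h against 1.18, 2.9 and 0.578 CPM at 0 h in ZC3H7B-OE, and 51.4, 37.4 and 70.4 CPM against 5.39, 2.17 and 1.83 CPM in control. The libraries of 6 h and 0 h were far apart in both lines, although TOB1 counts at 0 h were near the limit of detection. So were those of GIGYF2 in control, with 1, 2 and 2 reads at 0 h. The largest decreases in ZC3H7B-OE were those of EXOSC4 (-1.93, SE 0.48), EXOSC2 (-1.44, SE 0.13), EXOSC1 (-1.29, SE 0.37), EIF4E2 (-1.25, SE 0.19) and EXOSC5 (-0.99, SE 0.20). In control they were those of EXOSC7 (-2.07, SE 0.72), WDR61 (-1.97, SE 0.78), EIF4E2 (-1.73, SE 0.19), EXOSC4 (-1.48, SE 0.49) and EXOSC5 (-1.37, SE 0.20). All of these passed edgeR's test, and the calls of EXOSC7 and WDR61 ended without control 0 h replicate 3 (adjusted p = 0.0636 and 0.183).

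Several catalytic subunits were higher at 6 h in both lines. CNOT6 rose by 2.63 in ZC3H7B-OE and 2.35 in control, CNOT7 by 2.37 and 1.22, DIS3 by 2.06 and 1.78, and DCP2 by 2.03 and 1.13 on the log2 scale, whereas PARN stood at -0.22 and 0.16 and PAN2 at -0.23 and 0.40, not called in either line. BTG2 was called higher at 6 h in control (1.06, adjusted p = 9.84e-05) and not in ZC3H7B-OE (-0.08, adjusted p = 0.771), and the test of that change between lines is the one given above for BTG2.

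The labelled share of the decay genes as a group was lower at each later time in both lines. Pooled over the 48 genes it was 88.2% ± 0.337, 76.9% ± 1.78, 37.7% ± 0.914 and 21.4% ± 0.548 at 0, 2, 4 and 6 h in ZC3H7B-OE (SD, n = 3 per time). In control it was 88.9% ± 0.808, 80.0% ± 2.38, 40.2% ± 1.06 and 22.1% ± 0.43 at the same times. Over all reads of a library the share was 74.8%, 71.8%, 45.5% and 29.6% in ZC3H7B-OE and 76.7%, 75.7%, 47.7% and 29.9% in control, so the decay genes started higher and ended lower than the libraries as a whole. The SKI genes did not follow this course in ZC3H7B-OE, where their share was 61.6% ± 2.09 at 0 h and 76.2% ± 1.5 at 2 h, against 80.4% ± 8.65 and 72.0% ± 5.57 in control. CNOT10 also had a higher share at 2 h (87.5, 87.9 and 77.4%) than at 0 h (76, 76.7 and 62.9%) in ZC3H7B-OE. Of the sub-complexes, the TOB/BTG adaptors ended lowest, at 10.0% ± 0.372 in ZC3H7B-OE and 8.40% ± 0.529 in control at 6 h. The exosome genes ended at 29.2% ± 0.695 in ZC3H7B-OE and 28.0% ± 1.72 in control, and PAN2, PAN3 and PARN together at 29.5% ± 1.14 and 29.5% ± 1.89.

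Single genes spread widely around these values. Among genes with at least 100 reads in a group, EXOSC5 kept the largest share at 6 h in ZC3H7B-OE, 60.4% (exact 95% interval 55.7% to 65.0%, 269 of 445 reads), and EDC4 in control, 57.3% (50.2% to 64.1%, 118 of 206 reads). TOB2 was down to 9.4% (8.71% to 10.1%, 629 of 6692 reads) in ZC3H7B-OE and 7.69% (7.01% to 8.40%, 446 of 5803 reads) in control. At 0 h CNOT1 was labelled in only 59.3% of its reads (55.1% to 63.4%) in ZC3H7B-OE and 52.2% (47.4% to 57.1%) in control, and EXOSC8 in 57.7% (50.4% to 64.8%) and 51.9% (46.0% to 57.8%). Intervals cover counting error only.

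Labelled against unlabelled reads of the same library were compared between lines for 43 of the 48 genes among 10080 entries. At 0 h 1 gene was called, beside 0.903% of all entries. At 2 h there were 5 genes called (5.05% of all entries), at 4 h there were 2 (3.38%) and at 6 h there were 3 (6.19%). The genes called at 2 and 4 h all had a lower labelled share in ZC3H7B-OE, as did 501 of the 509 entries called at 2 h and 318 of the 341 called at 4 h. With the totals of labelled and of unlabelled reads as library sizes, so that each gene is set against its library, 1 call was left at 2 h, that of DCP1A, and 0 at 4 h. Without any 1 of the 6 libraries of 4 h, 0 genes were called at 4 h as well. Shares of all entries called are not given here for these alternative fits.

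DCP1A was labelled in 91.4, 92.3, 93.1% at 0 h, then 73.2, 65, 65.6% at 2 h, then 26.9, 25.9, 25.2% at 4 h and finally 16.4, 15.7, 14.3% at 6 h in ZC3H7B-OE. In control the shares were 92, 95.9, 93.6% at 0 h, then 81.1, 83.3, 77.3% at 2 h, then 32.8, 33.1, 34.4% at 4 h and finally 17.8, 20.5, 19.6% at 6 h. ZC3H7B-OE was below control in every library at 2, 4 and 6 h. The log2 ratio of the odds was -0.97 (SE 0.20, edgeR adjusted p = 0.000373) at 2 h and -0.51 (SE 0.16, edgeR adjusted p = 0.0423) at 4 h.

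DIS3 was labelled in 71.5, 81, 85.1% at 0 h, then 58.9, 58.6, 56.7% at 2 h, then 26.1, 27.5, 26% at 4 h and finally 15.5, 15.1, 17.9% at 6 h in ZC3H7B-OE. Its control shares were 86.3, 81.9, 70.3% at 0 h, then 72.5, 68.5, 65.3% at 2 h, then 33.5, 36.5, 36.3% at 4 h and finally 26.5, 22.5, 21.3% at 6 h. The lines overlapped at 0 h and were apart from 2 h on. The log2 odds ratio was -0.67 (SE 0.22, edgeR adjusted p = 0.0477) at 2 h, -0.60 (SE 0.18, edgeR adjusted p = 0.041) at 4 h and -0.66 (SE 0.18, edgeR adjusted p = 0.0111) at 6 h. The DIS3 call at 2 h ended on leaving out 17 of the 24 libraries in turn, and that at 6 h on leaving out 3 (adjusted p up to 0.136). CNOT6 and CNOT7 were also called at 2 h, at -0.76 (SE 0.24, edgeR adjusted p = 0.0423) and -0.97 (SE 0.26, edgeR adjusted p = 0.0104). Without control 2 h replicate 2 CNOT7 stood at -0.63 (adjusted p = 0.227), and without ZC3H7B-OE 2 h replicate 3 at -0.77 (adjusted p = 0.145). The CNOT6 call ended on leaving out any 1 of 4 libraries of 2 h (adjusted p from 0.141 to 0.236). The mean share at 2 h was 76.7% ± 3.05 in ZC3H7B-OE and 84.8% ± 3.16 in control for CNOT6, and 76.9% ± 4.25 and 86.7% ± 6.20 for CNOT7 (SD, n = 3).

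EDC3 was called lower at 2 h and higher at 6 h. Its share was 94.5, 96.2, 93.2% at 0 h, then 87.1, 89.6, 89.1% at 2 h, then 55.3, 55.4, 49.3% at 4 h and finally 25.6, 26.2, 29.9% at 6 h in ZC3H7B-OE. In control it was 93.8, 94, 95.1% at 0 h, then 92.4, 95.2, 89.3% at 2 h, then 48.5, 47.4, 49.6% at 4 h and finally 18.5, 22, 20.6% at 6 h. At 2 h the ranges overlapped at 1 library, with ZC3H7B-OE lower on average, at a log2 odds ratio of -0.65 (SE 0.19, edgeR adjusted p = 0.0212). Leaving out control 2 h replicate 2 gave -0.37 (adjusted p = 0.404), and the call also ended without ZC3H7B-OE 2 h replicate 1 or control 2 h replicate 1 (adjusted p = 0.125 and 0.0769). At 6 h every ZC3H7B-OE library was higher, at a log2 odds ratio of 0.55 (SE 0.14, edgeR adjusted p = 0.00703), a call that ended without ZC3H7B-OE 6 h replicate 3 or control 6 h replicate 1 (adjusted p = 0.0998 and 0.0864). EXOSC2 was called at 6 h only, at 0.86 (SE 0.18, edgeR adjusted p = 0.000418). Its labelled share at 6 h was 50, 58.1 and 55.1% in ZC3H7B-OE, against 37.7, 39 and 42.1% in control, without overlap.

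TTC37 was the gene called at 0 h, at -3.30 (SE 0.87, edgeR adjusted p = 0.0345). Its labelled share at 0 h was 37.5, 22.2 and 35.3% in ZC3H7B-OE, against 78.3, 62.5 and 95.2% in control. The libraries did not overlap, but each held 8 to 23 reads of TTC37 at that time. At 2 h the shares were 77.8, 56.2 and 95.5% in ZC3H7B-OE and 100, 100 and 56.0% in control. Without control 0 h replicate 3 the call at 0 h ended (-2.56, adjusted p = 0.264), and CNOT7 was called instead (-1.64, adjusted p = 0.0462). Without any 1 of the ZC3H7B-OE libraries of 0 h, or without control 0 h replicate 1, 0 genes were called at 0 h.

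**Figure D4:**
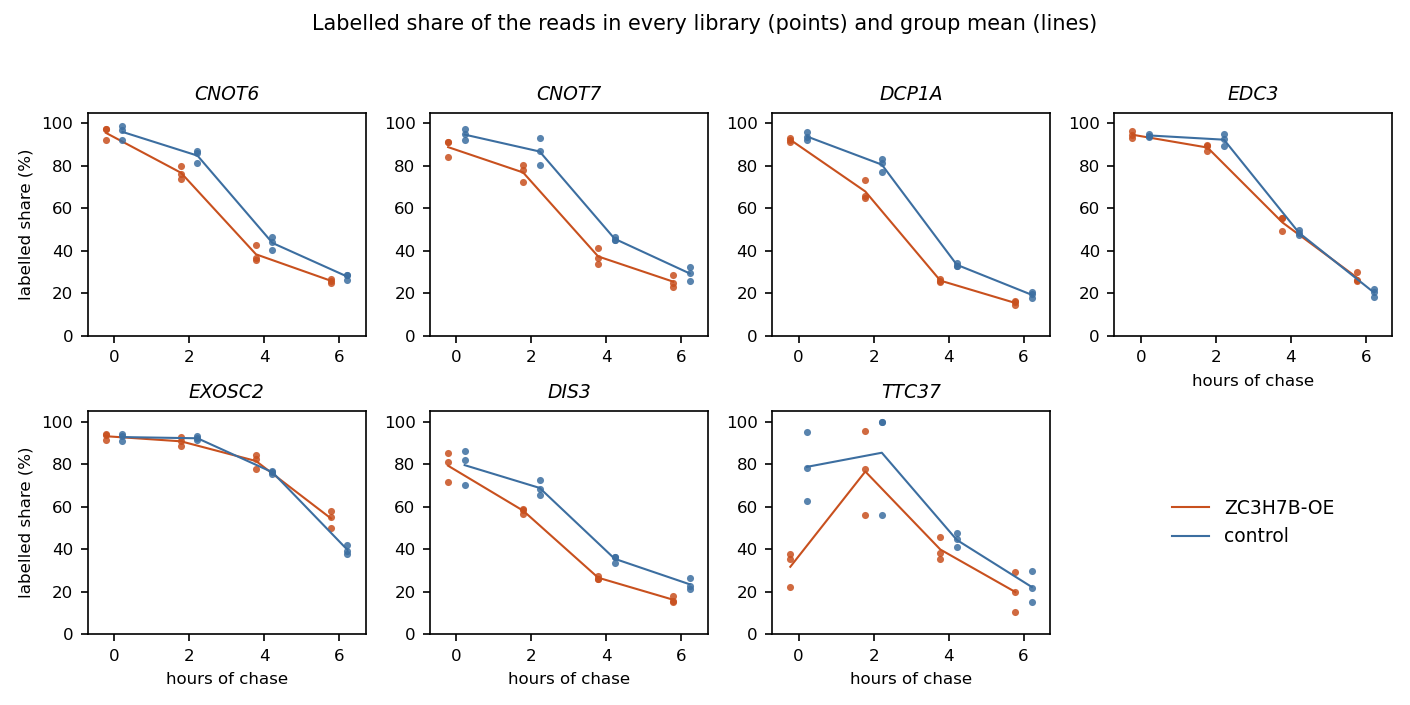
Labelled share of the reads (percent) in each library against hours of chase for the 7 genes called at any time; ZC3H7B-OE points stand left of control points, and lines join group means. DCP1A and DIS3 are lower in ZC3H7B-OE from 2 h on, EXOSC2 and EDC3 are higher at 6 h, and TTC37 is lower at 0 h.

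Loss of labelled reads was summarised as a slope per hour in each line for 37 genes among 8713 entries, scaled to all reads of a library. In ZC3H7B-OE 23 of the 37 slopes were called negative, beside 72.6% of all entries, and in control 23 were, beside 75.6%. Without the 0 h libraries 31 of 36 were called negative in ZC3H7B-OE and 25 of 36 in control. The share of all entries in that fit is not given here. A called positive slope was found for PAN3 in ZC3H7B-OE (0.16 per h, SE 0.05; 1.99% of all entries) and for PAN3 (0.18, SE 0.05) and CNOT6 (0.10, SE 0.04) in control (1.88% of all entries). These positive slopes were not called without the 0 h libraries. From 2, 4 and 6 h alone PAN3 stood at 0.02 (adjusted p = 0.652) in ZC3H7B-OE and 0.01 (adjusted p = 0.804) in control, and CNOT6 at -0.04 (adjusted p = 0.317) in control. Labelled reads of some genes rose after the pulse ended. Those of CNOT6L went from 9.46, 10.1 and 8.67 CPM at 0 h to 35.6, 48.7 and 49.9 at 2 h in ZC3H7B-OE. In control they went from 17.1, 25.5 and 11.9 CPM to 51.5, 52.8 and 45.7. Those of TOB2 fell in both lines. The source of these rises was not tested, so a slope need not describe loss of RNA made during the pulse alone.

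Among genes with at least 50 labelled reads in control at 0 h, the shortest half-lives, 1 divided by the size of a called negative slope, belonged in ZC3H7B-OE to BTG2 (1.78 h), GIGYF1 (2.0 h), LSM1 (2.18 h), TOB2 (2.19 h) and PARN (2.22 h). In control they belonged to LSM1 (1.84 h), TOB2 (2.08 h), EXOSC2 (2.28 h), EIF4E2 (2.33 h) and GIGYF1 (2.35 h). The longest among called negative slopes were those of EXOSC9 (7.82 h), CNOT1 (6.23 h), PAN2 (6.11 h), BTG1 (5.09 h) and CNOT3 (5.01 h) in ZC3H7B-OE, and those of DCP1A (9.29 h), PAN2 (7.05 h), EXOSC9 (5.83 h), SKIV2L (5.56 h) and CNOT3 (4.78 h) in control. Several of these calls were near the threshold: that of EXOSC9 in ZC3H7B-OE ended in 14 of 28 alternatives, and in control those of DCP1A and PAN2 ended without any 1 control library of 6 h (adjusted p up to 0.13 and 0.0842) and that of EXOSC9 without control 0 h replicate 3 (0.067). The slope of LSM1 in control was -0.54 per h with all libraries and -0.45 without control 0 h replicate 3. These half-lives describe loss relative to all reads of a library, so new mRNA and cell growth enter them, and each slope averages over the first 2 h, when the labelled share of the libraries changed little.

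No difference in slope between the lines passed the test. For the difference in slope 0 of the 37 genes and 0.0% of all entries were called by edgeR, the only tool run on slopes. At an unadjusted p under 0.05 it was 1 of 37 genes, CNOT7 (0.13 per h, adjusted p = 0.838), and 479 of 8713 entries. The largest differences among the 37 were 0.26 per h for EXOSC7 (adjusted p = 0.985) and 0.18 per h for TTC37 (adjusted p = 0.985).

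The line difference of a gene went with the make-up of its coding sequence and 3' UTR as the mean of the 4 times. Across the 40 tested genes, Spearman's rho of the mean log2 fold change was 0.42 with G or C at the third codon position and -0.52 with the share of U in the 3' UTR. Over 9429 entries with an annotated transcript the values were 0.50 and -0.53. At 0, 2, 4 and 6 h the rho with third-position G or C was 0.54, 0.17, 0.30 and 0.21 across the 40 genes, against 0.52, 0.27, 0.42 and 0.37 over the entries. With U in the 3' UTR it was -0.60, -0.28, -0.39 and -0.19, against -0.54, -0.27, -0.43 and -0.42. These are correlations across genes of the same 24 libraries, given as a description. Third-position G or C had a median of 70.7% (44.9% to 74.1%) in the 6 genes called higher. In the 12 called lower the median was 43.9% (32.2% to 90.5%), and in the 22 not called 50.2% (32.5% to 91.5%). Over all entries it was 59.5%. BTG2, at 90.5%, was the gene called lower that departed most from this order, and CNOT4, at 44.9%, the one called higher.

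**Figure D5:**
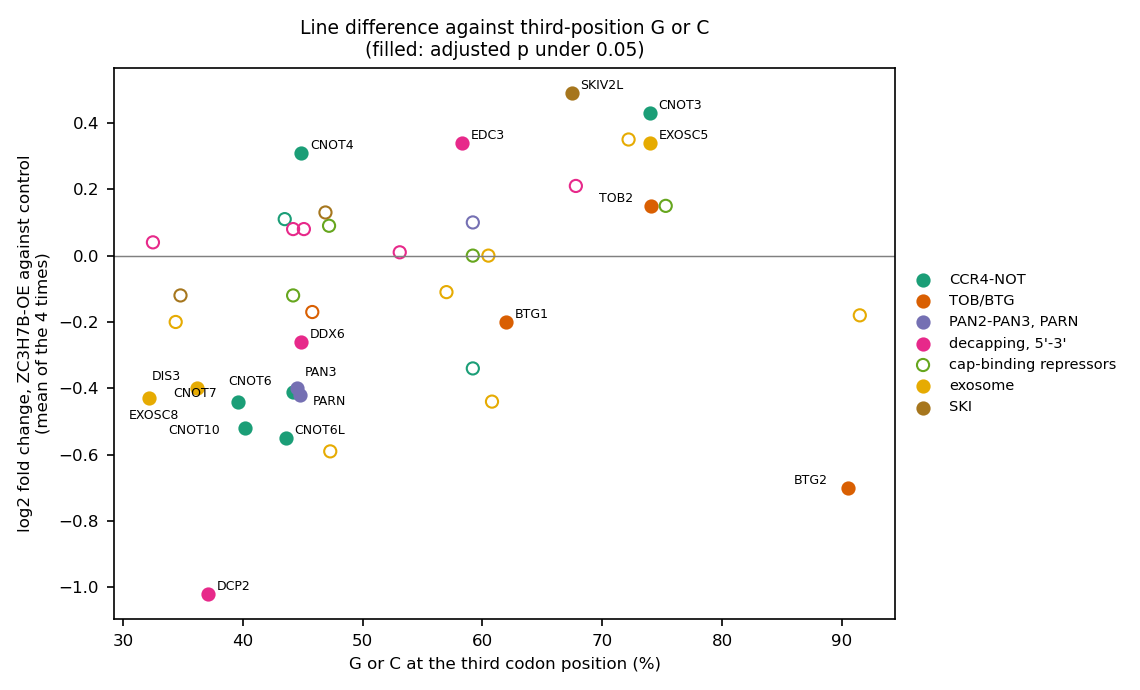
Mean log2 fold change, ZC3H7B-OE against control, against the percentage of codons with G or C at the third position for the 40 tested genes, coloured by sub-complex; filled points have adjusted p under 0.05 (edgeR) and are named. Genes called higher lie mostly to the right (median 70.7%) and genes called lower mostly to the left (median 43.9%), with BTG2 (90.5%) as an exception.

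The change over the chase went the other way. Its rho with third-position G or C was -0.62 in ZC3H7B-OE and -0.50 in control across the 40 genes, against -0.53 and -0.39 over 9429 entries. With U in the 3' UTR it was 0.62 in ZC3H7B-OE and 0.52 in control across the 40 genes. Over the entries that rho was 0.59 in ZC3H7B-OE and 0.46 in control. With the length of the 3' UTR it was 0.61 in ZC3H7B-OE and 0.63 in control across the 40 genes, against 0.35 and 0.37 over all entries. The annotated 3' UTR was 7044 bases long in CNOT6L, 7486 in DCP2 and 7626 in DIS3, which were higher at 6 h, and 259 in EXOSC5 and 40 in SKIV2L, which were lower.

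Of 39 further genes of the pathway outside the 48, 30 were tested, and 5 were called higher and 8 lower as the mean of the 4 times, with a median log2 fold change of 0.05. Over all entries the shares were the 20.4% and 25.4% given above and the median 0.01, so these counts lay near the background. The 6 with the smallest adjusted p were ANGEL2, a relative of the CCR4 nucleases (-1.12, SE 0.09), PNRC2, which brings decapping factors together (-0.71, SE 0.08), the LSM ring subunits LSM7 (0.56, SE 0.09) and LSM4 (0.46, SE 0.08), the exosome cofactor C1D (-1.11, SE 0.20) and the phosphodiesterase PDE12 (-0.38, SE 0.09). Among control libraries of 0 h, replicate 3 held the highest level of each of these 6. For C1D it held 253 CPM, against 61.7 and 57.4 CPM in the others. Values without that library are not given here for these genes. Over the chase 16 of the 30 were called higher and 7 lower at 6 h in ZC3H7B-OE, and 14 higher and 10 lower in control, beside 32.8% and 30.6% of all entries in ZC3H7B-OE and 30.7% and 29.9% in control.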

How the data were processed

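Poly(A) RNA of 24 HEK293 libraries was sequenced by SLAM-seq, 3 per line and chase time. The deposited tables hold raw read counts per gene, made by the authors. The tool fastp and the build GRCh37 are named, per the submitters' processing notes. For the aligner, the conversion caller, the conversions needed per read and how reads were counted, the entry is: not given in the sources used here. Each library has a count of all reads and a count of reads with T>C conversions, as the deposited tables name them. Counts of 1 gene entry were used as deposited, and entries naming several genes (450 of 19692, 2.297% to 3.69% of reads) stayed in the library sizes.

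For all reads, edgeR 4.0.16 (R 4.3.3) was used (TMM scaling, filterByExpr with a minimum count of 10, glmQLFit and glmQLFTest) on all 24 libraries with 1 mean per group, and p-values were Benjamini-Hochberg adjusted over all entries with a threshold of 0.05. SE is the size of the log2 fold change divided by the square root of F. Labelled against unlabelled reads were tested in 1 model with a term per library, for entries with at least 10 reads in at least 3 libraries. Slopes were fitted to labelled reads, scaled to all reads, with time as a number in each line. The scripts were tested on simulated data with 200 changed entries per test and 1 spread set for all entries. A line difference of log2 1 was recovered in 100% as the mean of the 4 times and in 65.5% at 6 h. False calls were 3.38% and 9.03% of the calls. For labelled against unlabelled reads at 6 h, 65% were recovered, with 5.11% false calls. A slope difference of -0.3 per h was recovered in 74%, with 4.52% false calls. DESeq2 1.42.0, other filters and scalings, fits without each library and each time were run as alternatives. Coding sequences and 3' UTRs came from GENCODE version 29 on GRCh38, matched by gene ID for 47 of the 48 genes and by symbol for DCP1A, and no coordinates of the authors' build were used. Same-numbered replicates did not deviate together and were not paired.

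The genes, lists and tests were chosen with earlier results of these data known. Genes shown by library were those called in the mean of the 4 times with 1 sign throughout, at most 12, plus the catalytic enzymes. BTG2 did not meet this rule and was added after its values were seen. Intervals and limits from counts cover counting error only, since reads carry no molecular identifiers in the sources used here.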

Additional observations from a re-analysis of the deposited data

Results flagged for a closer look

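CNOT7, a CAF1-type nuclease of CCR4-NOT, was, with all libraries, the decay gene whose difference between ZC3H7B-OE and control was not the same along the chase (edgeR F test of 3 interaction contrasts, adjusted p = 0.00453). At 0 h it held 75.1, 81.1 and 51.4 CPM in ZC3H7B-OE, against 152, 140 and 239 CPM in control, a log2 difference of -1.34. At 2, 4 and 6 h the log2 difference was -0.04, -0.19 and -0.19. Its labelled share at 0 h was 84.3, 91.1 and 91% in ZC3H7B-OE and 97.1, 95 and 92% in control. Control 0 h replicate 3, the library that lay away from the rest, had the highest CNOT7 level of the 0 h libraries, and without it the adjusted p was 0.000779 for CNOT7 and 0.0269 for DCP1A, which was then called as well.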

How the results depend on the processing

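Of 87 results on single genes, 46 kept their call under all alternatives run, and 237 of 2518 alternatives ended a call. Of the mean differences, the calls of BTG2, DIS3, EDC3, CNOT3, CNOT6, CNOT6L, DCP2 and SKIV2L were kept in all 32 alternatives, while those of EXOSC8, TOB2 and BTG1 ended in 22, 20 and 17 of 32. Calls at single times were the least stable. From only the 6 libraries of each time 1, 4, 12 and 14 genes were called at 0, 2, 4 and 6 h, against 8, 2, 5 and 2 with all libraries, and DESeq2 called 6 at 6 h. The line difference changed along the chase in 4 genes with no filter on low counts, 2 with DESeq2 and 2 without 2 h, against 1. With labelled and unlabelled totals as library sizes, 1 labelled share was called at 2 h and 0 at 4 h, against 5 and 2. From 2, 4 and 6 h only, the control slope of CNOT6 turned to -0.0406 per h (adjusted p = 0.317 by edgeR). The share of all entries called moved as well. For the change along the chase it was 3.67% without control 0 h replicate 3, against 1.73% with all libraries. For most alternatives in this section, fits without 1 library and the replicate block included, that share is not given here. Their counts therefore cannot be set against the background. The cause of these changes was not tested.

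Leaving out 1 library at a time, 4 to 7 genes were higher and 10 to 13 lower as the mean of the 4 times. Calls ran from 5 to 11 at 0 h, 0 to 6 at 2 h, 3 to 10 at 4 h and 1 to 7 at 6 h, and from 1 to 3 for the change along the chase. Labelled shares gave 0 to 1, 1 to 7, 0 to 2 and 1 to 4 calls at 0, 2, 4 and 6 h. Over the chase 18 to 19 genes were higher and 8 to 11 lower in ZC3H7B-OE, and 21 to 22 higher and 7 to 12 lower in control. Negative slopes numbered 22 to 26 in ZC3H7B-OE and 20 to 26 in control, and 0 slopes differed between lines.

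Libraries with the same replicate number share only that number: their deviations correlated at -0.122 to 0.218 over 12 pairs, 1 of them over 0.1, and 5 of 24 libraries correlated best with their own number. With the replicate number as a block, 6 genes were higher and 11 lower as the mean of the 4 times, and the calls at 0, 2, 4 and 6 h numbered 8, 2, 5 and 2.

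Depth limits the genes at few reads: 8 of the 48 could not be tested, and DCP2 was called from 164 reads in ZC3H7B-OE and 270 in control. All levels are shares of a library.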
